A study of Mus musculus with 2 samples.

Results

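The unfolded protein response and the integrated stress response were followed through 35 genes in sorted mouse bone marrow progenitors. The genes were chosen by symbol, all 35 were found among the 31053 gene rows of the files, and they form 3 groups: 16 chaperones, folding enzymes and translocation proteins of the endoplasmic reticulum (ER), 14 genes of the arm run by the transcription factor ATF4, and 5 stress sensors or factors. The study profiled Lin- Kit+ cells, which are marrow cells without mature lineage markers that carry the Kit receptor, by droplet single-cell RNA sequencing. It had 1 wild-type (WT) library and 1 library with a knock-in (KI) mutation of GATA-1, a transcription factor needed for red cells, megakaryocytes, mast cells and eosinophils. The sources used here do not name the mutated residue, the age or sex of the animals or the number of animals behind a library. There was no replicate, so every difference below lies between 2 cell classes of a library or between 2 libraries, no test across samples was possible, and every interval covers counting error only.

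Secreted and membrane proteins fold in the ER with the help of chaperones such as BiP (Hspa5) and of the lectins calreticulin (Calr) and calnexin (Canx). When folding falls behind, the sensors IRE1 (Ern1), ATF6 and PERK (Eif2ak3) respond: IRE1 splices Xbp1 RNA, and XBP1 and ATF6 then switch on chaperone genes through promoter elements named ERSE. PERK belongs to a family of kinases that phosphorylate the initiation factor eIF2, which lowers protein synthesis but favours translation of Atf4. Another member of that family, HRI (Eif2ak1), senses heme shortage in red cell precursors, so the ATF4 arm can be on without ER stress. ATF4 acts on genes of amino acid supply such as Asns through elements named CARE. Neutrophil and monocyte precursors fill granules with secretory proteins, whereas red cell precursors mainly make cytosolic hemoglobin.

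Promoter elements were counted as a feature that the choice of genes did not use, although the ERSE was first defined on promoters of ER chaperone genes. Among RefSeq promoters (GRCm38.p6, 250 bases before to 50 after the start), 31 of the 35 genes were matched and Atf6, Hyou1, Manf and Ssr2 were not. The ERSE, searched on both strands as CCAAT and CCACG with 9 free bases between them, stood in 7 of 13 ER genes, 0 of 14 ATF4 arm genes and 0 of 4 sensors, against 0.119% of 32851 promoters. The shorter ERSE-II, ATTGG and CCACG with 1 free base between them, stood in Herpud1 and in 0.0365% of all promoters. The matches are shown because they mark the ER genes, with the fixed letters in capitals and each read in the direction of its motif.
Hspa5: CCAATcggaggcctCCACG
Hsp90b1, distal match: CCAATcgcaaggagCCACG
Hsp90b1, proximal match: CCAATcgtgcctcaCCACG
Calr: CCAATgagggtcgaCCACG
Canx: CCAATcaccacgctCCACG
Pdia6: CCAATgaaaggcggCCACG
Dnajc3: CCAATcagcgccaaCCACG
Creld2: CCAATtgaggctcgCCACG
Herpud1: ATTGGgCCACG
The CARE, searched as TGATGNAA on both strands, stood in 5 of 14 ATF4 arm genes (Asns, Atf3, Chac1, Nupr1 and Trib3), in 1 of 13 ER genes (Herpud1) and in 3.97% of all promoters. These matches are shown with 6 bases of flank, for the genes in which they lie before the RefSeq start. By the GENCODE M21 annotation, the matches of Asns, Atf3 and Nupr1 lie inside the gene.
Asns: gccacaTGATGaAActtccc
Atf3: acttggTGATGcAAgtgcga
Chac1: caggagTGATGcAAcggcag
Nupr1: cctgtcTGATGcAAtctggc
Herpud1: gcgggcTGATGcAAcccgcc

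The 250 bases before the start are printed for 3 genes on which the results turn: Hspa5, with chr2:34771840-34772089 on the plus strand, Canx, with chr11:50325674-50325923 on the minus strand, and Asns, with chr6:7693210-7693459 on the minus strand. The start is that of the RefSeq entry. The GENCODE M21 annotation, from which the gene positions below are taken, begins Hspa5 and Asns farther upstream, so that 120 of the printed Hspa5 bases, its ERSE among them, and 45 of the Asns bases, its CARE among them, lie inside the gene by that annotation, and 0 of the Canx bases do. Capitals mark the ERSE in Hspa5 and Canx, the core TGACGTG of another element, the UPRE, in Hspa5 (found in 2.01% of all promoters), and the CARE in Asns.
Hspa5: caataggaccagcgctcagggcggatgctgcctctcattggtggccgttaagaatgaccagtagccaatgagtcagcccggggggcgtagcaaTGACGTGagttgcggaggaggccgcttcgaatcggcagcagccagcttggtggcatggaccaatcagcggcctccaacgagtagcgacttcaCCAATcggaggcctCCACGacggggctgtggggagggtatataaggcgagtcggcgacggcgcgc
Canx: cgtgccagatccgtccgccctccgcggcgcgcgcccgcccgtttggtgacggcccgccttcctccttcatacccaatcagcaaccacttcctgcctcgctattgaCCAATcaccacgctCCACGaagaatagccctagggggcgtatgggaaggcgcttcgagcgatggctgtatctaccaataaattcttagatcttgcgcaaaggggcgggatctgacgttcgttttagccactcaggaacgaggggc
Asns: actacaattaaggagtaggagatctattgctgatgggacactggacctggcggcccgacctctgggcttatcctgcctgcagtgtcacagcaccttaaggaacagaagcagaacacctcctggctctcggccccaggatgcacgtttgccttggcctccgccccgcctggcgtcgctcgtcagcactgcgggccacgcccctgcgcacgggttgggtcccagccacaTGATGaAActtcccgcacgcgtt
Hspa5 and Canx both hold an ERSE, and the levels given further on differ in direction: Hspa5 was higher in myeloid-like than in erythroid-like cells and Canx lower. A match is a description of letters and not a measured binding site.

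After filtering, 5489 WT cells and 5492 KI cells remained, with 64350027 and 43595969 unique molecular identifiers (UMIs, each marking 1 captured RNA molecule) and a median of 9635 and 5279 UMIs per cell. The files shared 10 cell barcodes. Clusters were named by marker genes, and each name means only that the cells resembled that type. There were 1353 WT and 1243 KI erythroid-like cells and 1674 and 660 myeloid-like cells, the latter being neutrophil-like (616 and 349) or monocyte-like (1058 and 311). The neutrophil-like cells were cluster 5, with 485 WT and 337 KI cells, and cluster 15, with 131 and 12. Cluster 5 was led by Prg2, an eosinophil marker, and cluster 15 by S100a8 and S100a9. The mix thus differed between libraries, so a genotype difference in the myeloid-like class also compares different mixtures. Of 37 erythroid markers, 37 were detected in the erythroid-like cells of each library, and of 38 myeloid markers, 37 in WT and 38 in KI in the myeloid-like cells. Detection alone did not tell the classes apart. Erythroid-like cells of WT and KI held 36 and 38 of the myeloid markers, and myeloid-like cells 35 and 34 of the erythroid ones. A further class of 861 WT and 1797 KI cells was led by Csrp3 and stayed unnamed. It carried erythroid markers at a lower level than the erythroid-like class and a higher level than every other class. The erythroid-like class lay almost wholly in other clusters in each library (clusters 3 and 9 in WT, cluster 2 in KI), so a genotype difference within it also compares different clusters. The same holds for the Csrp3-led class, which was cluster 4 in WT (838 cells) and clusters 0 and 10 in KI (1294 and 473 cells). Levels are given as CPM, the UMIs of a gene over all cells of a class scaled by the total of that class, and a gene was measured in a comparison if it had at least 50 UMIs over both sides. Erythroid markers summed to 11456 CPM in WT and 13504 CPM in KI in erythroid-like cells, 6252 and 5734 CPM in Csrp3-led cells and 433 and 199 CPM in myeloid-like cells. Myeloid markers summed to 32290 and 29209.5 CPM in myeloid-like cells and 595 and 345 CPM in erythroid-like cells. The markers also named the clusters, so these sums are descriptions only.

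Genes of ER folding stood far higher in the myeloid-like than in the erythroid-like cells of both libraries. Of 16 such genes, 14 were past 1.5-fold higher in WT and 14 in KI, against 23.0% of 10686 and 19.7% of 9944 genes measured. None was past 1.5-fold lower, against 26.6% and 23.5%. The median log2 ratio was 1.28 in WT and 1.37 in KI, with all genes at -0.17 and -0.15. Summed over the 16 genes, the level went from 2975 to 7317 CPM in WT and from 3396 to 8400 CPM in KI. Scaling by the median gene ratio instead of total UMIs raised the medians to 1.45 and 1.51. It also moved the share of higher among all genes past the fold from 46.3% to 58.0% in WT and from 45.6% to 56.0% in KI.

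Hspa5 (ENSMUSG00000026864, mm10 chromosome 2, 34771970 to 34777547, plus strand) encodes BiP, the main Hsp70 chaperone of the ER. It stood at 321 CPM in erythroid-like and 740.4 CPM in myeloid-like WT cells, and at 352 and 1013 CPM in KI, log2 ratios of 1.21 (1.17 to 1.24) and 1.53 (1.48 to 1.58). Both myeloid-like values lay above both erythroid-like values. Hsp90b1, the ER form of Hsp90, went from 296 to 741 CPM in WT and from 312 to 817 CPM in KI. Calr (mm10 chromosome 8, 84841850 to 84846934, minus strand), a calcium-binding lectin of the ER lumen, went from 500.5 to 1467 CPM in WT and from 669 to 2117 CPM in KI. Sec61b, a subunit of the channel through which new proteins enter the ER, went from 470.1 to 1492 CPM and from 543 to 1326 CPM.

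The largest ratio among the ER genes belonged to Sdf2l1, which works with BiP and its J-domain partners. It stood at 54.4 and 271 CPM in WT and at 58.3 and 265 CPM in KI, log2 ratios of 2.32 (2.24 to 2.40) and 2.18 (2.08 to 2.29). Among the disulfide isomerases, the log2 ratios were, for Pdia6, 1.98 in WT and 1.90 in KI, for Pdia4 1.84 and 1.81, and for Pdia3 1.40 and 1.21. Partners of BiP were also past 1.5-fold: Hyou1, its exchange factor, at 1.24 and 1.49, the co-chaperones Dnajc3 at 1.20 and 1.27 and Dnajb9 at 1.12 and 1.49, and Manf at 1.34 and 1.35. Herpud1, a component of ER-associated degradation, stood at 1.15 and 0.96, and Creld2 at 1.03 and 1.10.

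Canx and Ssr2 did not follow the group. Canx (mm10 chromosome 11, 50293961 to 50325673, minus strand), the membrane-bound relative of calreticulin, stood at 366 CPM in erythroid-like and 273 CPM in myeloid-like WT cells and at 394 and 325 CPM in KI, log2 ratios of -0.42 (-0.47 to -0.38) and -0.28 (-0.35 to -0.20). It was thus higher in the erythroid-like cells of each library, within 1.5-fold, while its partner Calr was higher in the myeloid-like cells. Ssr2, a subunit of the complex beside the translocation channel, stood at 290.2 and 389.7 CPM in WT and 294 and 408 CPM in KI, log2 ratios of 0.43 and 0.47.

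**Figure D1:**
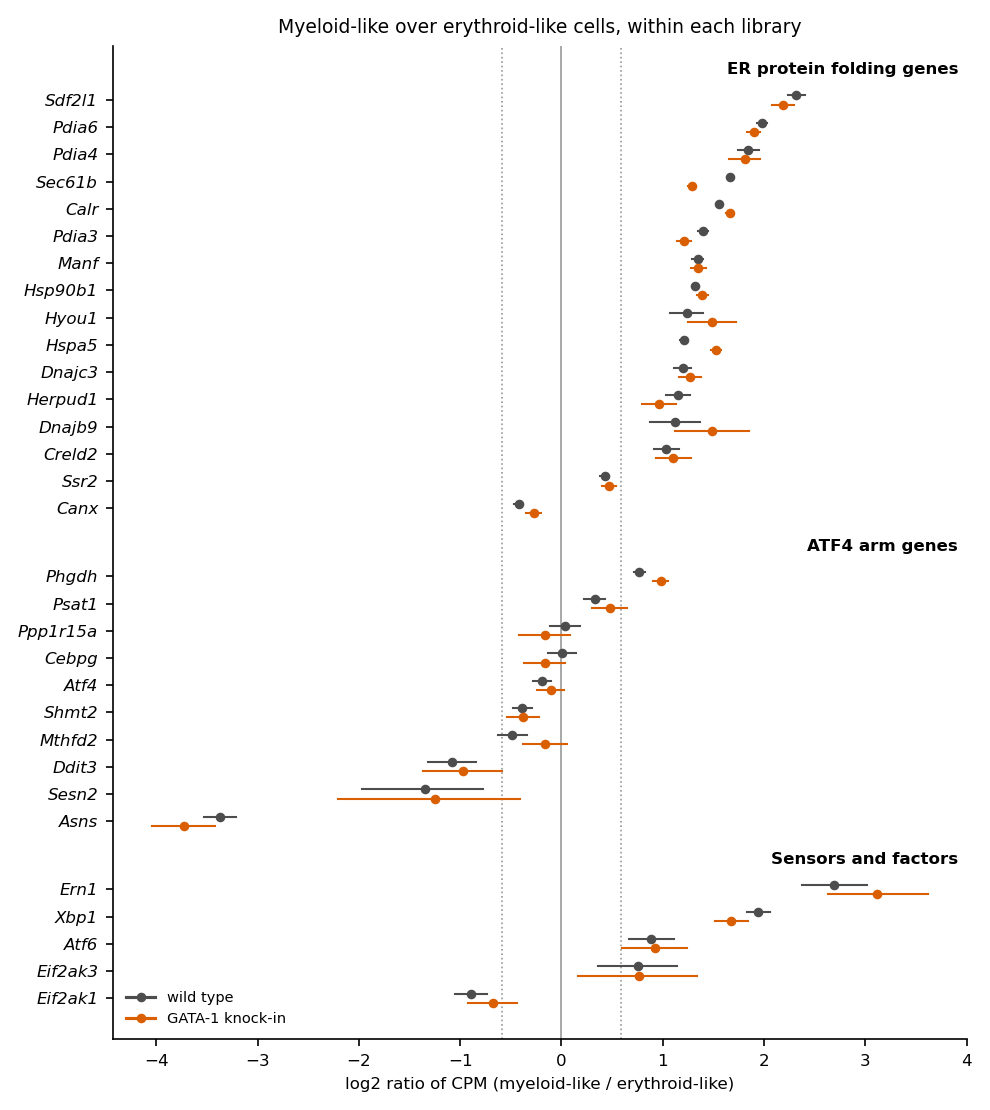
Log2 ratio of CPM in myeloid-like over erythroid-like cells for the 31 measured genes, within the WT library (grey) and the KI library (orange). Points are ratios, bars are 95% counting intervals, the solid line marks no difference and the dotted lines 1.5-fold. The ER genes lie to the right apart from Canx and Ssr2, the ATF4 arm genes lie around 0 with Asns far to the left at -3.37 and -3.72, and the sensors lie on both sides.

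The sensors divided between the lineages. Ern1, which encodes IRE1, stood at 3.49 CPM in erythroid-like and 22.5 CPM in myeloid-like WT cells and at 2.40 and 20.8 CPM in KI, log2 ratios of 2.69 (2.37 to 3.02) and 3.11 (2.63 to 3.62). Its substrate Xbp1 went from 30.4 to 117 CPM in WT and from 31.4 to 100.1 CPM in KI. Atf6 went from 10.2 to 18.95 CPM and from 11.15 to 21.1 CPM, and Eif2ak3 (PERK) from 3.70 to 6.23 CPM and from 3.70 to 6.28 CPM. Eif2ak1 (HRI) went the other way, from 43.3 to 23.4 CPM in WT and from 43.3 to 27.1 CPM in KI, log2 ratios of -0.89 (-1.05 to -0.73) and -0.68 (-0.93 to -0.44). Of the 5 genes, 4 were past 1.5-fold higher and 1 past 1.5-fold lower in each library, against 23.0% and 26.6% of all genes in WT and 19.7% and 23.5% in KI. Past the fold in every other setting that measured them were Eif2ak1, Ern1 and Xbp1 in WT and Atf6, Eif2ak3, Ern1 and Xbp1 in KI. In WT, Eif2ak3 stood at 4.22 CPM (24 UMIs) in neutrophil-like and 7.1 CPM in monocyte-like cells, and in KI at 6.70 and 5.97 CPM. Gene counts do not show whether Xbp1 was spliced or whether a kinase was active.

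The ATF4 arm showed no common direction between the lineages. Of 10 measured genes, 1 was past 1.5-fold higher in the myeloid-like cells and 3 past 1.5-fold lower, in both libraries, against 23.0% and 26.6% of all genes in WT and 19.7% and 23.5% in KI. The median log2 ratio was -0.29 in WT and -0.17 in KI, and -0.12 and -0.02 after scaling by the median gene ratio. The 4 other genes of the arm were too rare to measure. Atf4 itself (mm10 chromosome 15, 80255184 to 80257541, plus strand) stood at 96.7 and 84.7 CPM in WT and at 99.6 and 92.5 CPM in KI. Its log2 ratio was -0.19 in WT and -0.11 in KI, and the KI value turned positive under 2 of 16 other settings.

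Asns (mm10 chromosome 6, 7675169 to 7693254, minus strand), which makes asparagine, had the largest ratio of the arm. It stood at 192.4 CPM in erythroid-like cells and 18.6 CPM in myeloid-like cells of WT, and at 192.1 and 14.5 CPM in KI, log2 ratios of -3.37 (-3.53 to -3.21) and -3.72 (-4.05 to -3.42). Both erythroid-like values lay above every other class. Ddit3, the proapoptotic factor CHOP, stood at 22.4 and 10.6 CPM in WT and 21.0 and 10.7 CPM in KI, and Sesn2, a leucine-sensing inhibitor of mTORC1, at 4.21 and 1.65 CPM and at 5.10 and 2.15 CPM. Phgdh, the first enzyme of serine synthesis, was the gene past 1.5-fold higher in myeloid-like cells, at 175 and 298 CPM in WT and 188 and 370.3 CPM in KI. Psat1, the next enzyme of that pathway, had log2 ratios of 0.33 and 0.47. The mitochondrial folate enzymes Shmt2 and Mthfd2 lay below 0, at -0.39 and -0.38 and at -0.48 and -0.16. Ppp1r15a, the phosphatase subunit that reverses eIF2 phosphorylation, and Cebpg, a dimer partner of ATF4, lay within 0.17 of 0 in both libraries.

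Other genes of the same machinery were counted against the same shares of all genes, which were 23.0% higher and 26.6% lower in WT and 19.7% and 23.5% in KI. Of 43 further ER genes measured, 26 were past 1.5-fold higher in myeloid-like cells of WT and 26 in KI, and 0 were lower. Ssr4 went from 354 to 953 CPM in WT and from 432 to 956 CPM in KI, and Spcs2, a signal peptidase subunit, from 245 to 556 CPM and from 262 to 547 CPM. Of 27 further ATF4 arm genes in WT, 5 were past the fold higher and 10 lower, and of 26 in KI, 3 and 7, which is nearer to those shares. Eif4ebp1, a repressor of translation initiation, stood at 272.5 and 110.5 CPM in WT and 269.9 and 122 CPM in KI, and the aminoacyl-tRNA synthetase gene Eprs at 272 and 154 CPM and at 340.0 and 228 CPM. Of 14 genes around eIF2 and its exchange factor eIF2B or the processing of ER factors, 0 were higher and 6 lower in WT, and 0 and 7 in KI. Eif2s1, the eIF2 subunit that is phosphorylated, stood at 270.2 and 191 CPM in WT and 259 and 195 CPM in KI.

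Heat shock genes of the cytosol, with Hspd1 and Hspe1 of the mitochondria, did not move with the ER genes. Of 11 measured, 5 were past 1.5-fold lower in myeloid-like cells in each library, with 1 higher in WT and 2 in KI. For this and the next lists, the shares of all genes were 26.6% lower and 23.0% higher in WT and 23.5% and 19.7% in KI. Hsp90aa1 stood at 2126 and 784 CPM in WT and at 2745 and 1248 CPM in KI. Genes of heme synthesis, which mark red cell differentiation, were past the fold lower in 10 of 11 in WT and 11 of 12 in KI, with Alas1, the general form of the first enzyme, as the exception. Immediate-early genes, which are also induced when cells are prepared, were higher in myeloid-like cells for 14 of 15 in WT and 10 of 14 in KI. Their summed level was 702 and 1690 CPM in WT and 671 and 1399 CPM in KI, and their part in the ER result was not tested.

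Myeloid RNA in the erythroid-like class was low for granule markers and relatively higher for monocyte markers. The 5 granule markers Mpo, Elane, Prtn3, Ctsg and Ms4a3 summed to 26784 CPM in myeloid-like and 319 CPM in erythroid-like WT cells, and to 23944 and 93.8 CPM in KI, and all 5 were detected in each. The 17 monocyte markers summed to 3475 and 242 CPM in WT and 3249 and 233 CPM in KI, and all 17 were detected in each. Plasma cell markers, from the cell type best known for a large ER, summed to 1.97 CPM in WT and 1.16 CPM in KI in the myeloid-like class over 8 genes, with Jchain, Igha, Mzb1 and Ighg2b at 0 in both. The median depth was 21916 and 10914.5 UMIs per cell in erythroid-like and myeloid-like WT cells and 16801 and 9035 in KI. With each cell thinned to 2000 UMIs, 14 of 16 ER genes in WT and 13 of 16 in KI were past the fold.

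Across the 7 classes compared, the myeloid-like cells had the highest level of 14 of the 16 ER genes in each library. The summed ER level was lowest in the Csrp3-led cells, at 2373 CPM in WT and 2490.0 CPM in KI. It was 2975 and 3396 CPM in erythroid-like, 2983 and 3292 CPM in lymphoid-primed-like, 3189 and 3582 CPM in megakaryocyte-like and 3354 and 3566 CPM in stem/multipotent-like cells. Basophil/mast-like cells stood next to the top, at 4133 and 4167 CPM, and myeloid-like cells at 7317 and 8400 CPM. Neutrophil-like and monocyte-like cells taken apart were close, at 7853 and 7084 CPM in WT and 8456 and 8359 CPM in KI. Calr was high in basophil/mast-like cells too, at 1087 CPM in WT and 1357 CPM in KI.

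The ATF4 arm summed to a narrow range over the same 7 classes, from 614 to 758 CPM in WT and from 640.4 to 755 CPM in KI, but different genes made up the sum. Erythroid-like cells had the highest Asns, Sesn2, Shmt2 and Mthfd2 in each library. Csrp3-led cells had the highest Ddit3, at 39.4 CPM in WT and 39.8 CPM in KI, and the highest Ppp1r15a, at 117 and 122 CPM. Basophil/mast-like cells had the highest Atf4, at 120 CPM in WT and 128 CPM in KI, and the highest Psat1, at 93.8 and 85.5 CPM. Phgdh was highest in lymphoid-primed-like cells of WT, at 315 CPM, and in myeloid-like cells of KI, at 370.3 CPM, where lymphoid-primed-like cells stood at 346 CPM. Nupr1, a stress-induced chromatin protein, was rare throughout and stood highest in megakaryocyte-like cells, at 6.78 CPM (24 UMIs) in WT and 11.9 CPM (33 UMIs) in KI.

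**Figure D2:**
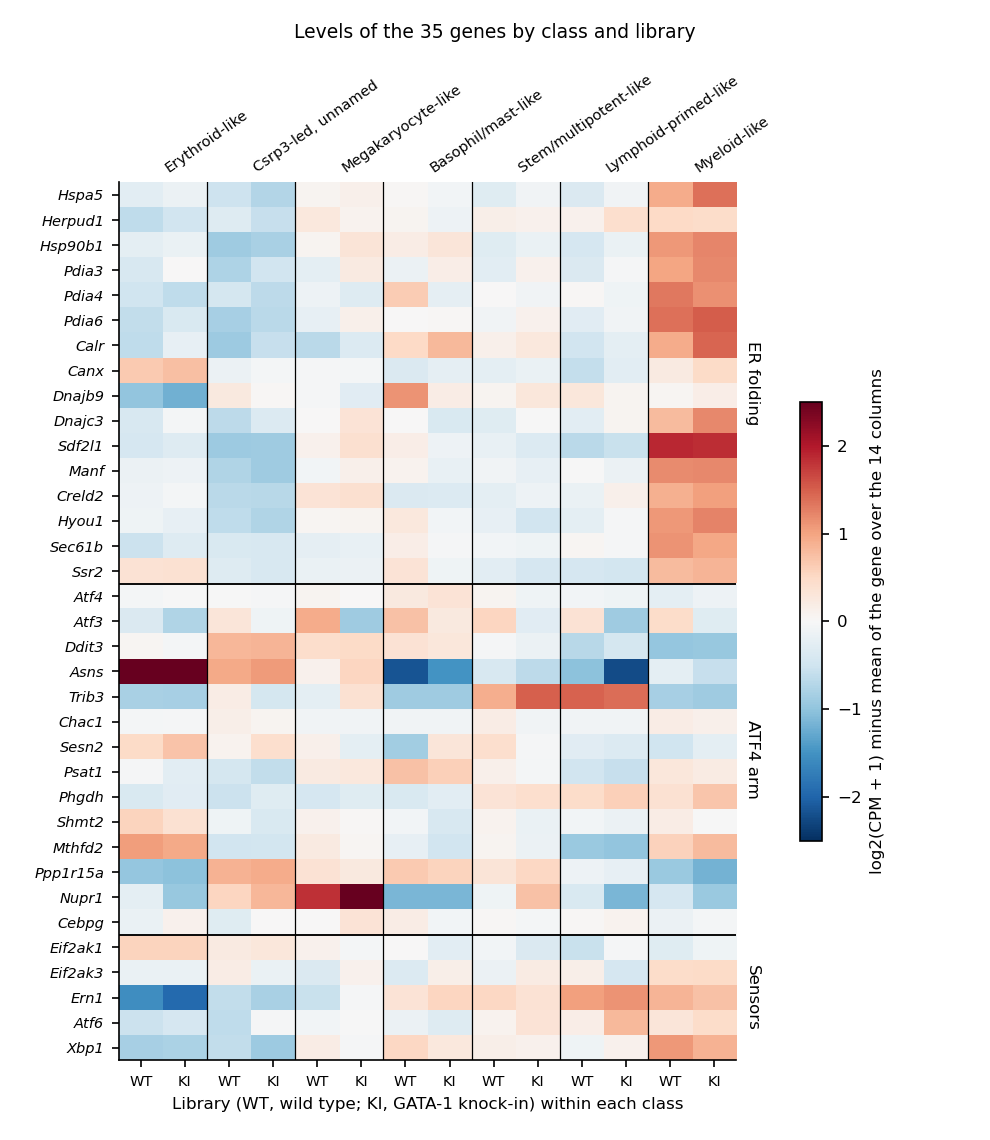
Level of each of the 35 genes in 7 cell classes and both libraries, as log2(CPM + 1) minus the gene's mean over the 14 columns, on a color scale from blue (low) to red (high). The ER genes are reddest in the myeloid-like columns, with 14 of 16 highest there. Asns stands out in the erythroid-like columns, at 192.4 CPM in WT and 192.1 CPM in KI, and rare genes such as Atf3, Trib3, Chac1 and Nupr1 rest on few UMIs.

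Erythroid-like cells stood at opposite ends for the sensors Ern1 and Eif2ak1. Ern1 was lowest in erythroid-like cells, at 3.49 CPM in WT and 2.40 CPM in KI, and highest in lymphoid-primed-like cells, at 25.6 and 27.5 CPM. Eif2ak1 was highest in erythroid-like cells, at 43.3 CPM in both. It was next in Csrp3-led cells, at 34.0 CPM in WT and 35.6 CPM in KI, and lay between 19.3 and 31.4 CPM in the other 5 classes.

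Within the Csrp3-led and erythroid-like clusters, Asns ran opposite to Ddit3 and Ppp1r15a, 3 genes of the arm chosen after their values were seen. Asns was lowest in the large KI cluster 0 (1294 cells), at 13.2 CPM, and stood at 44.0 CPM in WT cluster 4 (838 cells) and 82.4 CPM in KI cluster 10 (473 cells). It reached 191 and 197 CPM in WT clusters 3 and 9 and 191 CPM in KI cluster 2, all erythroid-like. Ddit3 and Ppp1r15a were highest where Asns was lowest. Ddit3 stood at 55.0 CPM in KI cluster 0, 39.5 CPM in WT cluster 4 and 23.9 CPM in KI cluster 10, against 21.0 to 22.7 CPM in the 3 large erythroid-like clusters. Ppp1r15a stood at 181 CPM in KI cluster 0, 116.2 CPM in WT cluster 4 and 59.5 CPM in KI cluster 10, against 29.4 to 33.5 CPM in the same 3.

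Immediate-early genes moved with Ppp1r15a here. Their summed level was 4992 CPM in WT and 3959 CPM in KI over the Csrp3-led class and 702 and 671 CPM over the erythroid-like class, and their part in the Ppp1r15a and Ddit3 levels was not tested. Egr1 was also among the leading genes of clusters 0 and 4. Asns was left out of the clustering genes but stood among the 10 leading genes of erythroid-like clusters 2 and 9. Clusters were formed from these same cells, so the cluster values are descriptions only.

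**Figure D3:**
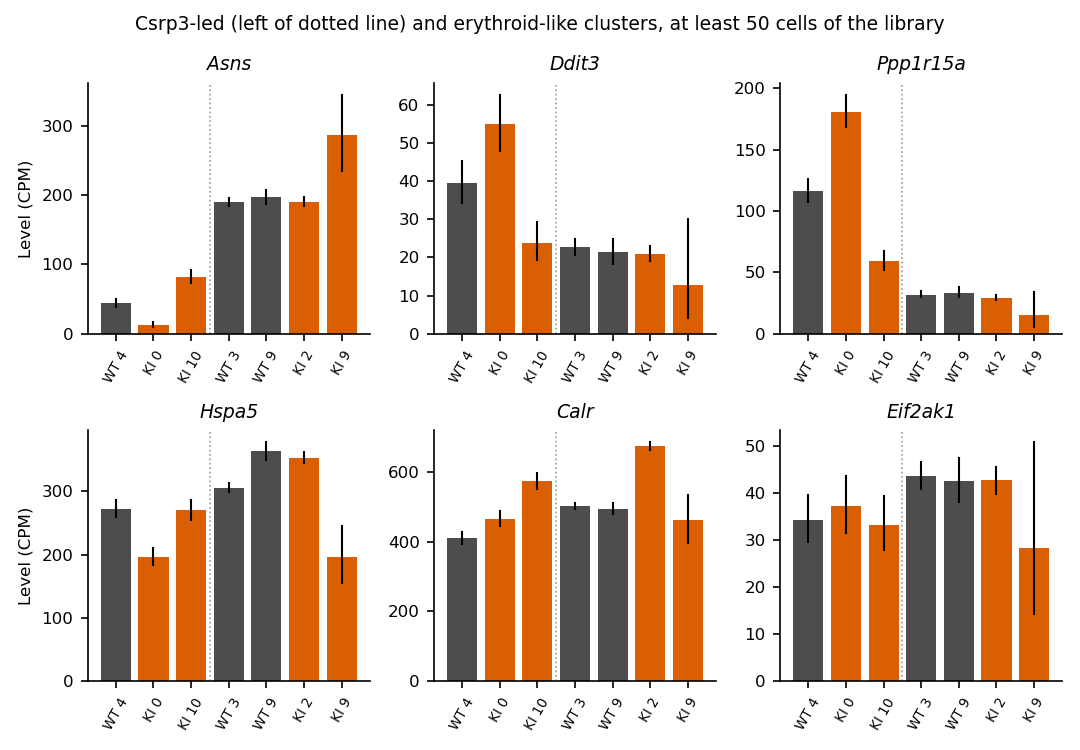
Level in CPM of 6 genes in the Csrp3-led clusters (left of the dotted line) and the erythroid-like clusters (right of it), for each library with at least 50 cells in the cluster, with grey bars for WT and orange bars for KI. Black lines are 95% counting intervals. Asns is low on the left, from 13.2 to 82.4 CPM, and from 191 CPM upward on the right, while Ddit3 and Ppp1r15a are highest in KI cluster 0. KI cluster 9 has 57 cells and wide intervals.

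Between genotypes, no gene of the 3 groups that was measured passed 1.5-fold in the erythroid-like or the myeloid-like cells as clustered here. The count was 0 of 31 measured genes in erythroid-like cells, where 10.9% of 10168 genes were past the fold, and 0 of 30 in myeloid-like cells, where 9.73% of 9972 were. With KI cells placed on the WT clusters instead, Sesn2 at 0.62 and Ern1 at -1.44 passed the fold in erythroid-like cells, and Calr at 0.60 and Ppp1r15a at -0.60 in myeloid-like cells. In the myeloid-like cells 51.6% of all genes past the fold were higher in KI, and 36.0% after scaling by the median gene ratio. The median log2 ratio of KI over WT was 0.10 for the ER genes in erythroid-like cells and 0.14 in myeloid-like cells. For the ATF4 arm it was -0.04 and 0.02, for the sensors 0.00 and 0.01, and for all genes 0.04 and 0.08. The direction between genotypes stayed the same in all settings for 17 of 31 genes in erythroid-like cells and 21 of 30 in myeloid-like cells. The other genes changed sign under at least 1 setting.

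Calr had the largest difference among the ER genes in both classes. It stood at 500.5 CPM in WT and 669 CPM in KI in erythroid-like cells and at 1467 and 2117 CPM in myeloid-like cells, log2 ratios of 0.42 (0.38 to 0.45) and 0.53 (0.50 to 0.56). In myeloid-like cells it passed 1.5-fold under 2 of 14 other settings, with a highest value of 0.62. Pdia3, the isomerase that works with calreticulin and calnexin, stood at 160.5 and 213 CPM in erythroid-like cells and at 423 and 492 CPM in myeloid-like cells. Dnajc3 had log2 ratios of 0.36 (0.26 to 0.45) and 0.43 (0.33 to 0.53). Hspa5 was close between genotypes in erythroid-like cells, at 321 and 352 CPM, and farther apart in myeloid-like cells, at 740.4 and 1013 CPM, log2 ratios of 0.13 (0.09 to 0.18) and 0.45 (0.41 to 0.50). Hsp90b1 had log2 ratios of 0.07 and 0.14, and Canx 0.11 and 0.25.

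Sec61b went opposite ways, at 470.1 CPM in WT and 543 CPM in KI in erythroid-like cells and at 1492 and 1326 CPM in myeloid-like cells, both within 1.5-fold. Pdia4 was lower in KI in both classes, with log2 ratios of -0.15 (-0.29 to -0.01) and -0.18 (-0.30 to -0.06). Herpud1, Creld2, Sdf2l1, Manf, Hyou1, Ssr2, Pdia6 and Dnajb9 lay between -0.23 and 0.23 in erythroid-like cells and between -0.03 and 0.15 in myeloid-like cells.

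Asns, the most lineage-dependent gene, had nearly the same level in the erythroid-like cells of both genotypes, with a log2 ratio of -0.00 (-0.06 to 0.06). Atf4 stood at 96.7 and 99.6 CPM there, a ratio of 0.04 (-0.04 to 0.13). Phgdh had ratios of 0.10 (0.04 to 0.16) in erythroid-like and 0.31 (0.24 to 0.39) in myeloid-like cells, and Shmt2 of -0.19 (-0.27 to -0.10) and -0.18 (-0.34 to -0.02). Psat1 had -0.23 and -0.08 and Cebpg 0.27 and 0.10. Eif2ak1 had a ratio of -0.00 (-0.13 to 0.12) in erythroid-like cells. Xbp1 had 0.04 (-0.10 to 0.19) there and -0.22 (-0.35 to -0.09) in myeloid-like cells. Ern1 had the largest size among measured genes in erythroid-like cells, at -0.54 (-1.06 to -0.04), from 102 and 50 UMIs, and passed 1.5-fold under 3 of 13 other settings, with -1.44 when KI cells were placed on the WT clusters.

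**Figure D4:**
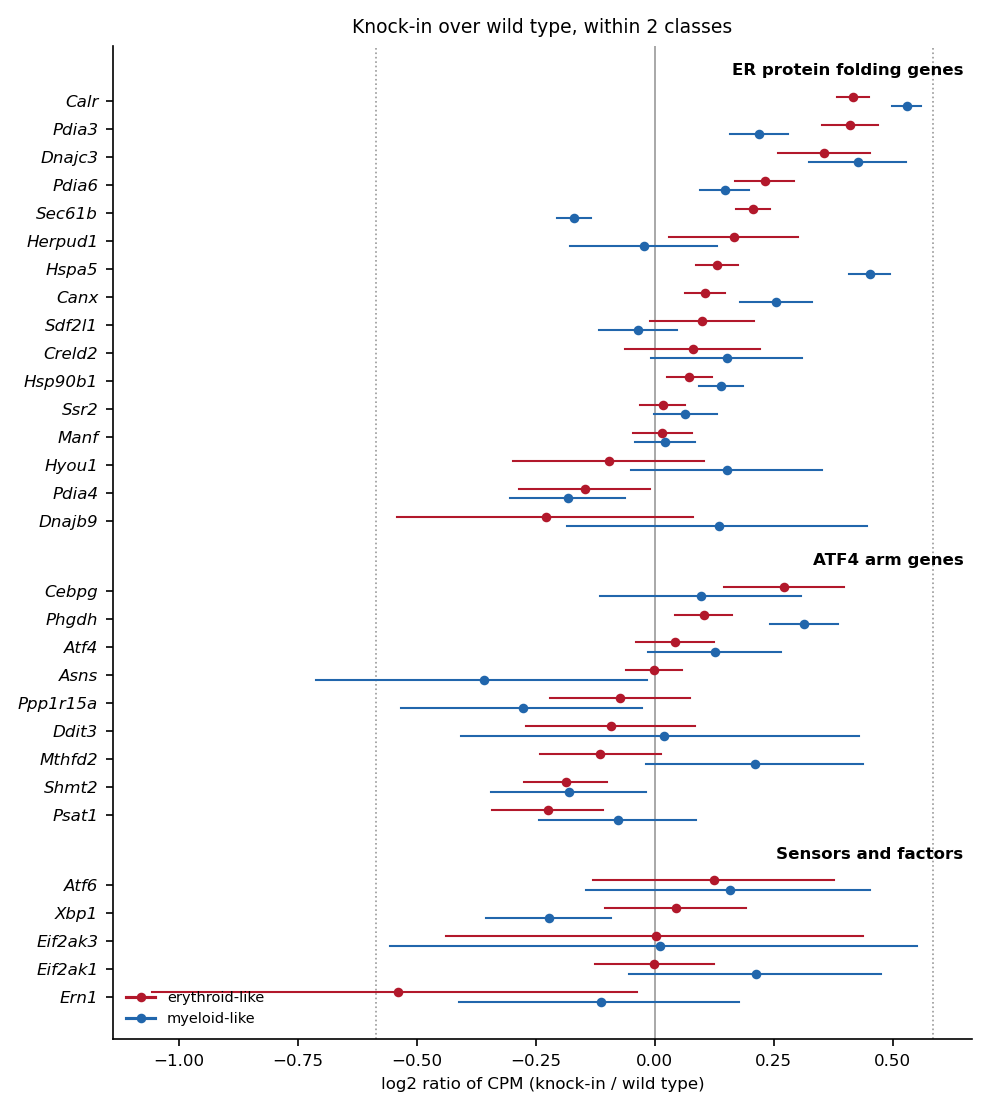
Log2 ratio of CPM, KI over WT, in erythroid-like cells (red) and myeloid-like cells (blue) for genes measured in both. Points are ratios, bars are 95% counting intervals, the solid line marks no difference and the dotted lines 1.5-fold. No point lies past the dotted lines, and Calr in myeloid-like cells, at 0.53, comes closest on the right.

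Over the whole libraries the summed level of the ER genes went the other way from the class sums. Over all cells the sum was 4254 CPM in WT and 3957 CPM in KI, with a median log2 ratio of -0.15. Within each of the 7 classes the sum was higher in KI. The difference was smallest in basophil/mast-like cells, from 4133 to 4167 CPM. Single genes went both ways there. Calr went from 1087 to 1357 CPM and Pdia3 had a log2 ratio of 0.33, while Hspa5, Manf and Ssr2 had -0.10, -0.27 and -0.46. Myeloid-like cells, with the highest ER level, made up 30.5% of WT cells and 12.02% of KI cells. The Csrp3-led cells, with the lowest, made up 15.7% and 32.7%. Shares of cells in a sorted gate come from 1 library each.

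For the other classes, the counts of genes past 1.5-fold between genotypes are small and are given beside the share of all genes. In Csrp3-led cells 1 of 30 measured genes passed the fold, Atf6 at 9.43 and 14.8 CPM, where 8.92% of all genes did. In megakaryocyte-like cells 2 of 30 did, Nupr1 and Ern1, at log2 ratios of 0.81 and 0.59, against 9.60% of all genes. In basophil/mast-like cells 2 of 21 did, both lower in KI, against 12.7% of all genes: Dnajb9, with 36 and 16 UMIs, and Pdia4, at 84.5 and 45.7 CPM. In lymphoid-primed-like cells 1 of 24 did, Atf6, with 25 and 28 UMIs, against 10.7% of all genes. In stem/multipotent-like cells 0 of 29 did, against 7.48% of all genes. Calr and Pdia3 were higher in KI in each of the 7 classes, with log2 ratios from 0.13 to 0.53 and from 0.22 to 0.46. Hsp90b1, Pdia6 and Phgdh were also higher in each, from 0.07 to 0.26, from 0.02 to 0.32 and from 0.08 to 0.31. Pdia4 and Shmt2 were lower in each, from -0.88 to -0.10 and from -0.34 to -0.08. The share of all genes that kept the same direction in each class was not counted.

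Several stress genes were near the limit of detection. In erythroid-like cells Ern1, with 152 UMIs over both libraries, was the rarest gene measured, and Nupr1, with 28, lay just under the minimum of 50. In myeloid-like cells Eif2ak3, with 155 UMIs, was just inside and Sesn2, with 44, just outside. Atf3, an immediate target of several stress kinases, had 71 UMIs over all WT cells and 14 over all KI cells, 1.10 and 0.32 CPM, a log2 ratio of -1.78 (-2.72 to -0.94). Of the 34 genes measured over all cells, it was the single gene that passed 1.5-fold between the libraries, where 13.2% of all genes did, and it reached the minimum within no class. Trib3 had 29 and 28 UMIs and Chac1, which breaks down glutathione, 7 and 3. In erythroid-like cells Atf3 had 13 UMIs in WT and 2 in KI, a log2 ratio of -2.21 (-5.40 to -0.07).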

How the data were processed

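Per the labels, Lin- Kit+ cells of mouse bone marrow were sorted and loaded for droplet 3' sequencing, with 1 library per genotype. The deposited matrices hold raw UMI counts for each gene and barcode, made with Cell Ranger 3.1.0, per the file headers, on mm10, per the submitters' processing notes. How barcodes were called is not given in the sources used here.

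Filters kept barcodes having no fewer than 500 genes and 1000 UMIs, and a mitochondrial share of 10% or less. Of the barcodes, 23.0% in WT and 11.4% in KI exceeded the mitochondrial limit. Scrublet in scanpy 1.11.5 marked 2.59% of WT cells. It marked 0.0692% of KI cells, under 0.5%, so the top 5% of KI scores were removed instead. Both libraries were clustered together (2000 variable genes, 30 components, 15 neighbours, Leiden resolution 1) without the 35 genes or the other pathway lists. Clusters were named by marker lists from folds within a library. The pooling of eosinophil with myeloid markers and the scoring limits were set after the clusters were seen. Clusters 0, 4 and 10 failed the naming rule and were kept as the Csrp3-led class.

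For each class of a library, UMIs were added up over cells and scaled to CPM. Intervals of 95% are exact Poisson for levels and exact conditional binomial for ratios. Only the ratio intervals were tried on simulated data. Those were Poisson counts without spread between cells or animals, so the trial could check the calculation alone. With 1 library per group there was no test, SE or p-value, and called means past 1.5-fold. Named were genes past the fold, the 4 genes of each group with most UMIs, the 5 sensors and the genes beside the UMI minimum, and up to 4 genes per other list. The gene Asns along the clusters and the other genes given there were chosen after their values were seen. Background RNA was not removed, and reads shared by near-identical gene copies were not examined. The members and lists were chosen with earlier results of these data known.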

Additional observations from a re-analysis of the deposited data

Results flagged for a closer look

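The ratio of Sec61b, KI over WT, lay on opposite sides of 0 in 2 classes, and both counting intervals left out 0. It was 0.21 (0.17 to 0.24) in erythroid-like cells and -0.17 (-0.21 to -0.13) in myeloid-like cells on the log2 scale. The difference between the classes was not tested, since each genotype has 1 library.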

How the results depend on the processing

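No paired analysis was possible because each genotype has 1 library. Of the medians under other settings, 111 stayed within their counting interval and 11 moved beyond it. The ATF4 arm medians between genotypes lay near 0 and changed sign under some settings, from -0.08 to 0.08 in erythroid-like and from -0.10 to 0.05 in myeloid-like cells. For ER genes, myeloid-like over erythroid-like, the median of 1.28 in WT became 1.45 with median-ratio scaling and 1.44 with neutrophil-like clusters only. In KI, 1.37 became 1.51 with the looser cell filter (at least 300 genes, 500 UMIs, at most 20% mitochondrial), 1.43 with doublets kept and 1.51 with median-ratio scaling. For the ATF4 arm in WT, -0.29 became -0.12 with median-ratio scaling, -0.19 with a minimum of 200 UMIs, -0.50 with neutrophil-like clusters only and -0.20 with monocyte-like clusters only. For ER genes, KI over WT in erythroid-like cells, 0.10 became 0.21 with the stricter cell filter (1000 genes, 2000 UMIs, 5%) and 0.20 at Leiden resolution 1.6. The cause was not tested. The largest erythroid-like cluster of each library alone, an alternative chosen after seeing the data, gave 1.32 in WT, 1.36 in KI and 0.15 between genotypes for the ER genes, and -0.28, -0.16 and -0.06 for the ATF4 arm. The ATF4 arm had 5 genes past the fold lower in WT neutrophil-like cells and 3 in the whole class. A minimum of 10 UMIs put 2 ATF4 arm genes, Atf3 and Nupr1, past the fold lower in KI in erythroid-like cells and 2 in myeloid-like cells, where the main count was 0. Placing KI cells on WT clusters put Sesn2 past the fold higher at 0.62 and Ern1 lower at -1.44 in erythroid-like cells, and Calr higher at 0.60 and Ppp1r15a lower at -0.60 in myeloid-like cells. Reference proteins were not examined.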

Other observations

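Among the further ER genes, Sec61g, the gene with the most UMIs of that list and another subunit of the translocation channel, was lower in KI in both classes. It stood at 845 CPM in WT and 480.5 CPM in KI in erythroid-like cells and at 1518 and 704.5 CPM in myeloid-like cells, log2 ratios of -0.81 and -1.11. Its partner Sec61b was at 470.1 CPM in WT and 543 CPM in KI in erythroid-like cells and at 1492 and 1326 CPM in myeloid-like cells. Sequences of Sec61g could be shared with gene copies elsewhere, which was not examined. Other further genes went the opposite way in erythroid-like cells. Fkbp11, of the same list, stood at 11.7 CPM in WT and 45.4 CPM in KI. Creb3l2, of the list around eIF2 and ER factors, stood at 11.3 and 37.6 CPM. How many further genes passed the fold between genotypes is not given here. Immediate-early genes were past 1.5-fold lower in KI for 5 of 15 genes in myeloid-like cells, with 0 higher, and for 6 of 14 in erythroid-like cells, with 3 higher, against 9.73% and 10.9% of all genes past the fold in either direction. Of all genes past the fold in myeloid-like cells, 51.6% were higher in KI, and 36.0% after scaling by the median gene ratio. Fos stood at 303 and 202 CPM in myeloid-like cells. Of the heat shock genes, Hsp90aa1 stood at 784 CPM in WT and 1248 CPM in KI in myeloid-like cells, a log2 ratio of 0.67. In erythroid-like cells it stood at 2126 and 2745 CPM.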
